A study of Schmidtea mediterranea with 5 samples.

Results

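The AGAT family of the planarian *Schmidtea mediterranea* was followed as the 3 transcripts that the supplementary files of the study pair with the names *AGAT-1* (SmedASXL_002889), *AGAT-2* (SmedASXL_018741) and *AGAT-3* (SmedASXL_010658), out of 82354 transcripts in the deposited tables. All 3 were measured in each of 5 RNA-seq libraries, with 50 to 18257 reads per library, so no member was lost to a filter on low values. *AGAT-1* and *AGAT-2* are listed there among epithelial progenitor genes known from earlier work, as Category 3 markers, the category of later progeny. The name *AGAT-3* is paired with a transcript only in the authors' list of transcripts that were lower after *mex3-1* knockdown. Its direction in that comparison was therefore fixed by where its name was found. That list also holds *AGAT-1* and *AGAT-2*. The text of the paper names *AGAT-1*, *AGAT-2* and *AGAT-3* together as progeny markers known from earlier work. Members were matched by name, without the use of their values.

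Planarians replace their epidermis from dividing stem cells called neoblasts. Post-mitotic descendants pass through an early stage marked by *prog-1* and *prog-2* and a later stage marked by *AGAT-1* before they reach the epidermis. AGAT stands for L-arginine:glycine amidinotransferase, and the best mouse match of each member is this mitochondrial enzyme (GATM). In vertebrates it moves the amidino group of arginine to glycine, which gives ornithine and guanidinoacetate, the precursor of creatine. What the enzyme does in planarian progeny is not addressed by these data, and the transcripts serve here as markers of a cell state.

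The groups were X2 cells, X1 cells, whole *mex3-1(RNAi)* animals, whole irradiated animals and whole *control(RNAi)* animals, with 1 library for each, all from the clonal asexual strain CIW4. X2 and X1 are fractions of dissociated animals sorted after Hoechst staining: X2 is the fraction associated with stem cell progeny, and X1 is rich in cycling neoblasts. Irradiated animals were taken on day 7 after 60 Gy of gamma irradiation, which kills neoblasts. The *mex3-1(RNAi)* and *control(RNAi)* animals were labelled as taken 12 days after 1 feed of double-stranded RNA, against the RNA-binding protein gene *mex3-1* or against *unc22*, a nematode sequence that served as control, although the growth protocol speaks of 5 feeds. Each RNAi library was a pool of RNA preparations. With a single library of this series for each condition there is no spread between replicates and no test across animals. The 95% intervals below come from read counts alone, cover counting error only, and compare these libraries rather than the conditions. Whether the irradiated animals had been fed like the RNAi animals is not given in the sources used here, so feeding and irradiation cannot be told apart in that comparison. The paper describes the X2, X1 and irradiated libraries as multiplexed together and does not place the RNAi libraries with them. In comparisons of an RNAi library with one of these, a difference in sequencing therefore cannot be told apart from the condition.

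The libraries held 60528509 to 69835694 mapped reads, and levels are given as CPM, reads scaled to an equal total of mapped reads per library. The targeted gene *mex3-1* was at 1051 CPM in X2, 452 CPM in X1, 23.4 CPM in *mex3-1(RNAi)*, 50.03 CPM in irradiated and 144 CPM in *control(RNAi)* animals, so the knockdown library matched its label. The stem cell marker *piwi-1* was highest in X1 and lowest in irradiated animals, at 3697 and 3.21 CPM. No library had 0 reads for any of the 59 stem cell transcripts listed by the study, whose summed level was 19769 CPM in X2, 33780 CPM in X1, 7913 CPM in *mex3-1(RNAi)*, 2903 CPM in irradiated and 6606 CPM in *control(RNAi)* animals. The X2 fraction therefore still held many stem cell transcripts, and how far such cells enter the AGAT values was not tested.

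*AGAT-1* and *AGAT-2* were high in X2 cells and in *control(RNAi)* animals and low in the other 3 libraries, whereas *AGAT-3* was high in *control(RNAi)* animals alone. *AGAT-1* was at 254 CPM in X2, 14.8 CPM in X1, 11.8 CPM in *mex3-1(RNAi)*, 20.9 CPM in irradiated and 224 CPM in *control(RNAi)* animals. Its 5 levels fell in the order X2, *control(RNAi)*, irradiated, X1 and *mex3-1(RNAi)*, and no neighbouring pair of counting intervals overlapped. *AGAT-2* was at 227 CPM in X2, 16.0 CPM in X1, 16.2 CPM in *mex3-1(RNAi)*, 25.8 CPM in irradiated and 265 CPM in *control(RNAi)* animals. The order of *AGAT-2* was *control(RNAi)*, X2, irradiated, *mex3-1(RNAi)* and X1, and its X1 and *mex3-1(RNAi)* levels could not be told apart, with intervals of 15.01 to 16.97 CPM in X1 and 15.2 to 17.2 CPM in *mex3-1(RNAi)*.

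*AGAT-3* was at 4.30 CPM in X2, 0.771 CPM in X1, 5.62 CPM in *mex3-1(RNAi)*, 20.0 CPM in irradiated and 76.3 CPM in *control(RNAi)* animals. Its order was *control(RNAi)*, irradiated, *mex3-1(RNAi)*, X2 and X1, with no overlap between neighbours, so both sorted fractions lay below all 3 whole-animal libraries. The paper, citing earlier sequencing, counts *AGAT-3* among markers whose expression peaks in X2. Here *AGAT-3* was higher in X2 than in X1 but not than in whole animals. Sorted cells that resist irradiation were not among these libraries. The X1 level rests on 50 reads and has an interval of 0.573 to 1.02 CPM. Levels are compared across libraries for each transcript and not between transcripts, because transcript lengths were not used in the scaling.

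**Figure D1:**
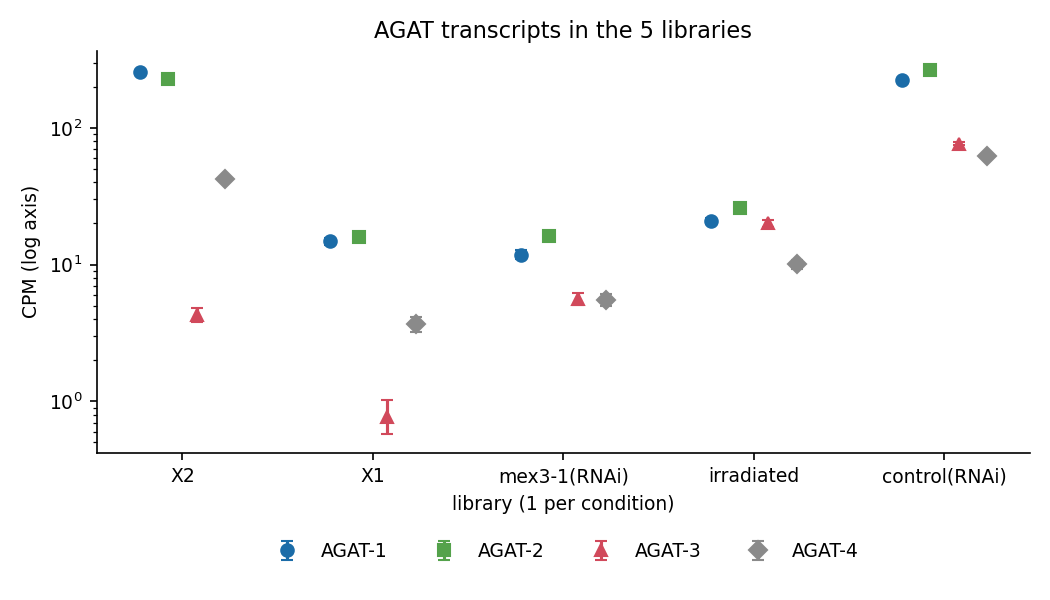
CPM on a log axis of *AGAT-1*, *AGAT-2*, *AGAT-3* and *AGAT-4* in the 5 libraries, 1 point per library, with 95% Poisson counting intervals. *AGAT-1*, *AGAT-2* and *AGAT-4* are high in X2 and *control(RNAi)*, while *AGAT-3* is at 4.30 CPM in X2 against 76.3 CPM in *control(RNAi)*.

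The make-up of the family showed the same split without any scaling between libraries. *AGAT-3* took 0.886% of the summed reads of the 3 members in X2 (exact 95% binomial interval 0.782 to 1.00%) and 2.45% in X1 (1.82 to 3.21%). It took 16.7% in *mex3-1(RNAi)* (15.2 to 18.4%), 30.0% in irradiated (28.6 to 31.3%) and 13.5% in *control(RNAi)* animals (13.2 to 13.8%). The share was thus smallest in the sorted fractions and largest in irradiated animals, and none of these 5 intervals overlapped. *AGAT-1* took 52.4% in X2, 46.9% in X1, 35.2% in *mex3-1(RNAi)*, 31.4% in irradiated and 39.6% in *control(RNAi)* animals. The summed level of the family was 485 CPM in X2, 31.5 CPM in X1, 33.6 CPM in *mex3-1(RNAi)*, 66.7 CPM in irradiated and 565 CPM in *control(RNAi)* animals. Reads of one AGAT transcript that also match another could move such shares. How such reads were counted is not given in the sources used here, so values for single members are uncertain in this respect.

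**Figure D2:**
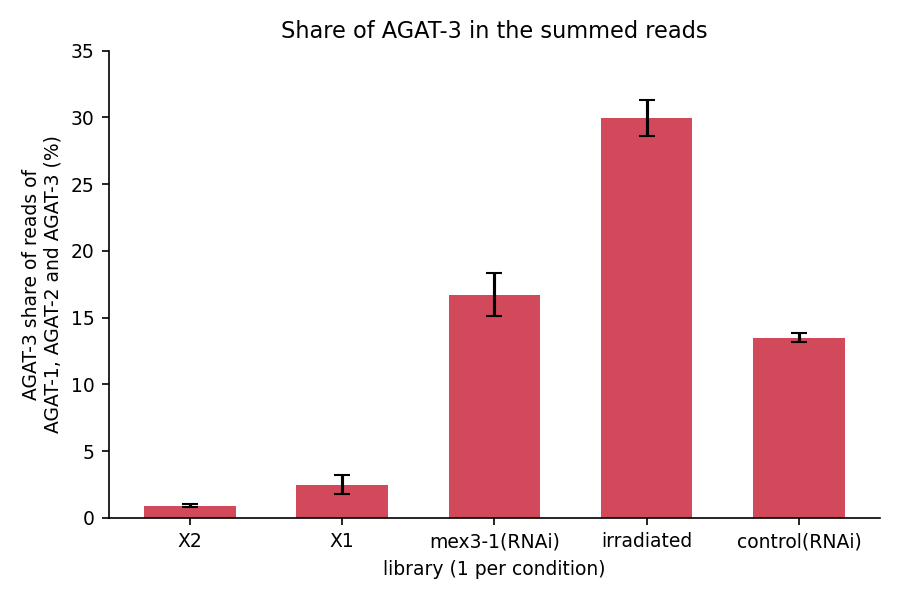
Bars give the share of *AGAT-3* in the summed reads of *AGAT-1*, *AGAT-2* and *AGAT-3* in each library, in percent, with exact 95% binomial intervals. The share is 0.886% in X2 and 30.0% in irradiated animals.

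Comparison of X2 with X1 asks which transcripts belong to progeny rather than to cycling cells. All 3 members were at least 2-fold higher in X2, where 13.8% of the 18151 transcripts tested were. Folds are ratios of CPM + 1, the scale of the deposited values, which understates the change of low transcripts, and a transcript was tested where either library reached 1 CPM. *AGAT-1* was 16.2-fold higher in X2 (15.2 to 17.2) and *AGAT-2* 13.4-fold (12.6 to 14.3), at ranks 29 and 47 from the highest fold. *AGAT-3* was 2.99-fold higher (2.54 to 3.47), at rank 1078. That fold rests on low counts, 260 reads in X2 against 50 reads in X1, and on the log2 scale it was 1.58 with 1 CPM added, 2.33 with 0.1 CPM added and 0.69, under 2-fold, with 5 CPM added.

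The members differed in how far they favoured X2. From raw reads, where library size and transcript length cancel, the X2 over X1 ratio of *AGAT-1* was 3.08 times that of *AGAT-3* (2.26 to 4.20) and that of *AGAT-2* was 2.55 times that of *AGAT-3* (1.87 to 3.47). *AGAT-1* and *AGAT-2* lay closer together, at 1.21 times (1.10 to 1.32). *prog-1* and *prog-2* favoured X2 more than any member did: the ratio of *AGAT-1* was 0.73 times that of *prog-1* (0.68 to 0.78), and that of *AGAT-3* was 0.24 times (0.17 to 0.32).

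Set against irradiated animals, the sorted fractions separated the members by direction. The median log2 fold, taken where both libraries reached 5 CPM, was 0.31 for X2 over irradiated and 0.23 for X1 over irradiated, and the members' log2 folds in these comparisons are given relative to it. *AGAT-1* was higher in X2 than in irradiated animals by a relative log2 fold of 3.23 (3.15 to 3.30) and *AGAT-2* by 2.78 (2.71 to 2.85), while *AGAT-3* was lower, at -2.30 (-2.46 to -2.14). Without the median shift, 2 of 3 members were at least 2-fold higher in X2, beside 23.0% of the 20494 transcripts tested. Lower by that much was 1 of 3, beside 32.4% of transcripts. On the same unshifted scale, percentiles 5 to 95 of all transcripts spanned -3.80 to 2.11. *AGAT-3* lay inside that range at -1.99, and *AGAT-1* and *AGAT-2* above it at 3.54 and 3.09. The X2 over irradiated ratio of reads of *AGAT-1* was 56.4 times that of *AGAT-3* (48.86 to 65.01).

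In X1 over irradiated, without the median shift, 1 of 3 members was at least 2-fold lower, beside 36.8% of the 21044 transcripts tested. None was higher by that much, beside 24.1% of transcripts. That member was *AGAT-3*, at a relative log2 fold of -3.79 (-3.97 to -3.59). Before the shift by the median its log2 fold was -3.57, and it depended on the pseudocount, being -4.53 with 0.1 CPM added and -2.11 with 5 CPM added. *AGAT-1* was at -0.70 (-0.81 to -0.59) and *AGAT-2* at -0.88 (-0.99 to -0.78), so both were below their level in irradiated animals by less than 2-fold. The CPM of every member in X1, the fraction rich in dividing cells, was thus below that in irradiated animals.

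Sorted cells and whole animals differ in material as well as in cell type, and X2 over *control(RNAi)* places the members on that axis. The median shift here was 0.26. Relative to it, *AGAT-1* was at -0.08 (-0.11 to -0.05) and *AGAT-2* at -0.49 (-0.52 to -0.45). *AGAT-1* was thus near its whole-animal level in X2, and the sign of its small difference depended on the scaling, since CPM without the shift gave 0.18. *AGAT-3* was at -4.13 (-4.28 to -3.98). Without the median shift it was the 1 of 3 members at least 2-fold lower in X2, beside 32.1% of the 20708 transcripts tested. In no member was X2 above *control(RNAi)* by 2-fold, beside 13.9% of transcripts. The list that names *AGAT-3* was drawn against this same *control(RNAi)* library, so the lower X2 ratio of *AGAT-3* is no independent evidence.

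After *mex3-1* knockdown all 3 members were at least 2-fold lower than in *control(RNAi)* animals, where 1.02% of the 19639 transcripts tested were. *AGAT-1* was 17.5 times lower (16.4 to 18.8), *AGAT-2* was 15.5 times lower (14.6 to 16.5) and *AGAT-3* was 11.7 times lower (10.6 to 12.8). They stood at ranks 19, 23 and 34 from the lowest fold, far below the 5th percentile of all transcripts at -0.36 on the log2 scale. Because the authors drew their list of lower transcripts from these libraries, and only that list pairs *AGAT-3* with a transcript, this is no independent evidence of its direction. In whole animals, fewer cells of a type and less RNA per cell cannot be told apart.

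The members differed from each other by small factors in this comparison, though by more than counting error. The ratio of reads of *AGAT-1* was 0.87 times that of *AGAT-2* (0.79 to 0.95) and 0.72 times that of *AGAT-3* (0.63 to 0.82). In X2 over irradiated, *AGAT-1* and *AGAT-3* had differed by 56.4 times. The 59 stem cell transcripts did not follow the members: 5 were at least 2-fold higher in *mex3-1(RNAi)* animals, as were 0.412% of the transcripts tested, 0 were lower, and the other 54 lay between. Their median log2 fold was 0.28, beside 0.01 over all transcripts.

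**Figure D3:**
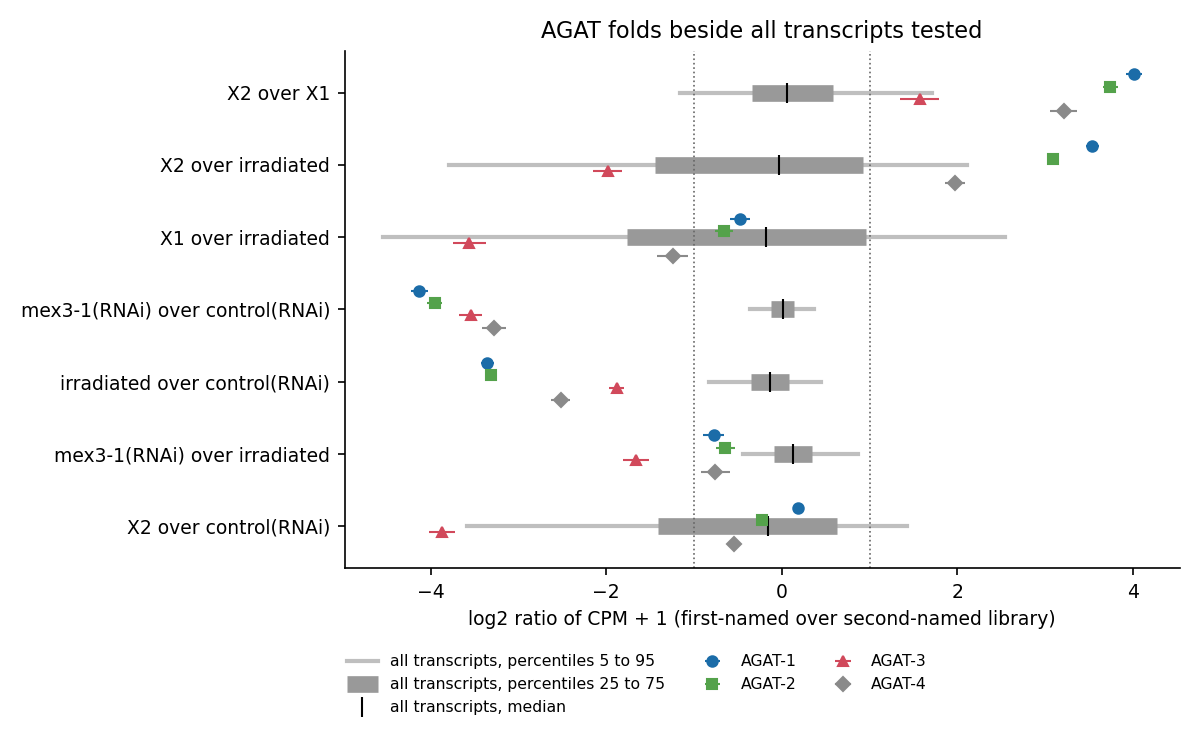
Points give the log2 ratio of CPM + 1 of each AGAT transcript in the 7 comparisons, with 95% counting intervals, beside percentiles 5 to 95 (thin bars), percentiles 25 to 75 (thick bars) and the median (ticks) of all transcripts tested. Dotted lines mark 2-fold, the ratios are not shifted by the median, and all AGAT transcripts lie far to the left in *mex3-1(RNAi)* over *control(RNAi)* while *AGAT-3* stands apart from the others in X2 over irradiated.

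Irradiation removes neoblasts, so irradiated over *control(RNAi)* asks what is left of the later progeny after 7 days. All 3 members were at least 2-fold lower, where 3.29% of the 19254 transcripts tested were. *AGAT-1* was 10.3 times lower (9.74 to 10.8) and *AGAT-2* was 9.94 times lower (9.49 to 10.4), at ranks 30 and 33 from the lowest fold. *AGAT-3* was 3.69 times lower (3.48 to 3.90), at rank 175. The list that names *AGAT-3* was drawn against this same *control(RNAi)* library, so the lower level of *AGAT-3* here is no independent evidence. The irradiated over *control(RNAi)* ratio of reads of *AGAT-1* was 0.36 times that of *AGAT-3* (0.33 to 0.39), whereas for *AGAT-1* and *AGAT-2* the difference was within counting error, at 0.96 times (0.90 to 1.03). Of the 59 stem cell transcripts, 34 were at least 2-fold lower in irradiated animals and 0 were higher, with a median log2 fold of -1.10 beside -0.13 over all transcripts, and their part in the AGAT values was not tested. The irradiated and *mex3-1(RNAi)* libraries are both set against the same *control(RNAi)* library.

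Every member was thus lower in both kinds of treated animals, and the *mex3-1(RNAi)* library can be set against the irradiated one directly. *AGAT-3* was 3.17 times lower in *mex3-1(RNAi)* than in irradiated animals (2.86 to 3.52), at rank 54 from the lowest fold, and was the 1 of 3 members past 2-fold, beside 0.899% of the 19249 transcripts tested. *AGAT-1* was 1.71 times lower (1.57 to 1.86) and *AGAT-2* was 1.56 times lower (1.45 to 1.68). All 3 were therefore below their irradiated level, and the *mex3-1(RNAi)* over irradiated ratio of reads of *AGAT-1* was 2.01 times that of *AGAT-3* (1.74 to 2.32). The targeted gene *mex3-1* was also lower there, at -1.06 on the log2 scale.

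Another transcript, *AGAT-4* (SmedASXL_010749), has the same mouse match and is named in the list of lower transcripts only. It was at 42.2 CPM in X2, 3.66 CPM in X1, 5.52 CPM in *mex3-1(RNAi)*, 10.01 CPM in irradiated and 62.2 CPM in *control(RNAi)* animals. *AGAT-4* thus shared the X2 and *control(RNAi)* peaks of *AGAT-1* and *AGAT-2*. It was 9.27-fold higher in X2 than in X1 (8.32 to 10.3) and 5.74 times lower in irradiated than in *control(RNAi)* animals (5.33 to 6.18), between *AGAT-1* and *AGAT-3* in both comparisons. In X2 over irradiated the ratio of reads of *AGAT-1* was 2.88 times that of *AGAT-4* (2.61 to 3.18), and that of *AGAT-3* was 0.051 times (0.044 to 0.060). After knockdown *AGAT-4* was 9.69 times lower than in *control(RNAi)* animals (8.82 to 10.7), a direction fixed by the list that names it. That list was drawn against the same *control(RNAi)* library, so the lower irradiated level of *AGAT-4* is no independent evidence either.

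The products and substrates of AGAT lead to other enzymes that the study annotated by their mouse matches. The list held 6 transcripts: *DCOR-1*, *DCOR-2*, SmedASXL_011495 and SmedASXL_007083, matched to ornithine decarboxylase, which makes putrescine from ornithine as the start of polyamine synthesis, SmedASXL_008166, matched to argininosuccinate synthase, which acts in the synthesis of arginine, and SmedASXL_004659, matched to a glycine transporter. All 6 were at least 2-fold lower in *mex3-1(RNAi)* than in *control(RNAi)* animals, where 1.02% of the transcripts tested were. The median log2 fold of the 6 was -2.83, beside 0.01 over all transcripts tested. The authors' list of lower transcripts holds every one of these 6, so this count is no independent evidence. In irradiated over *control(RNAi)*, 5 of 6 were at least 2-fold lower, as were 3.29% of the transcripts tested. The median of the 6 was -1.71, beside -0.13 over all transcripts. The exception was the glycine transporter match, which was at 15.3 CPM in irradiated and 24.6 CPM in *control(RNAi)* animals. *DCOR-2* and SmedASXL_007083 had been picked by the authors partly for low levels in irradiated libraries. The list that holds all 6 was drawn against this same *control(RNAi)* library, so a high value there favours a lower ratio here too. The irradiated count is therefore no independent evidence for any of the 6.

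In X2 over X1, 2 of 6 were at least 2-fold higher, as were 13.8% of the transcripts tested. The median log2 fold was 0.90 for the 6, beside 0.06 over all transcripts tested. The log2 folds of the 6 ran from 0.31 to 1.42 for SmedASXL_004659, which was at 2.13 CPM in X2 and 0.1697 CPM in X1. All 6 lay below the 1.58 of *AGAT-3*. *DCOR-2* was at 2.33 CPM in X2, 0.895 CPM in X1, 1.65 CPM in *mex3-1(RNAi)*, 4.48 CPM in irradiated and 46.0 CPM in *control(RNAi)* animals. It was thus low everywhere outside *control(RNAi)* animals, but the authors had also picked it and SmedASXL_007083 as high in wild-type animals and low in X1, X2 and irradiated libraries, so this is a description only. Its log2 fold in *mex3-1(RNAi)* over *control(RNAi)*, -4.15, was the lowest of the list. SmedASXL_011495, which is also a Category 3 marker, was at 2.64 CPM in X2, 0.555 CPM in X1, 5.62 CPM in *mex3-1(RNAi)*, 18.8 CPM in irradiated and 59.1 CPM in *control(RNAi)* animals. That is the order found for *AGAT-3*, but it was not particular to this transcript. SmedASXL_004659 of the same list had it, as did *NB.52.12f*, *MCP1* and *pmp-5* among the later markers taken up below. In X2 over *control(RNAi)*, all 6 of the list were at least 2-fold lower, as were 32.1% of the transcripts tested. Their median log2 fold was -2.94 beside -0.15 over all transcripts tested, or -3.21 relative to the median shift. The authors' list that holds all 6 was drawn against this same *control(RNAi)* library, so this count is no independent evidence.

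The other Category 3 markers named by the study, SmedASXL_011495, *NB.52.12f* and *MCP1*, had the direction of *AGAT-3* in X2 over irradiated. In X2 over irradiated all 3 were past 2-fold lower, as were 32.4% of the transcripts tested. The median log2 fold of the 3 was -2.77 beside -0.03 over all transcripts tested, or -3.08 relative to the median shift. In X2 over X1 all 3 were past 2-fold higher, as were 13.8% of the transcripts tested. The median of the 3 there was 1.44. *NB.52.12f* was at 13.7 CPM in X2, 2.78 CPM in X1, 123 CPM in *mex3-1(RNAi)*, 211 CPM in irradiated and 461 CPM in *control(RNAi)* animals. It kept a larger part of its *control(RNAi)* level after knockdown than any AGAT transcript, with a log2 fold of -1.90. *MCP1*, matched to a mitochondrial carrier, was at -1.08 after knockdown and at -0.23 in irradiated over *control(RNAi)*, so the 3 markers ran from -1.60 for SmedASXL_011495 to -0.23 in irradiated over *control(RNAi)*.

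**Figure D4:**
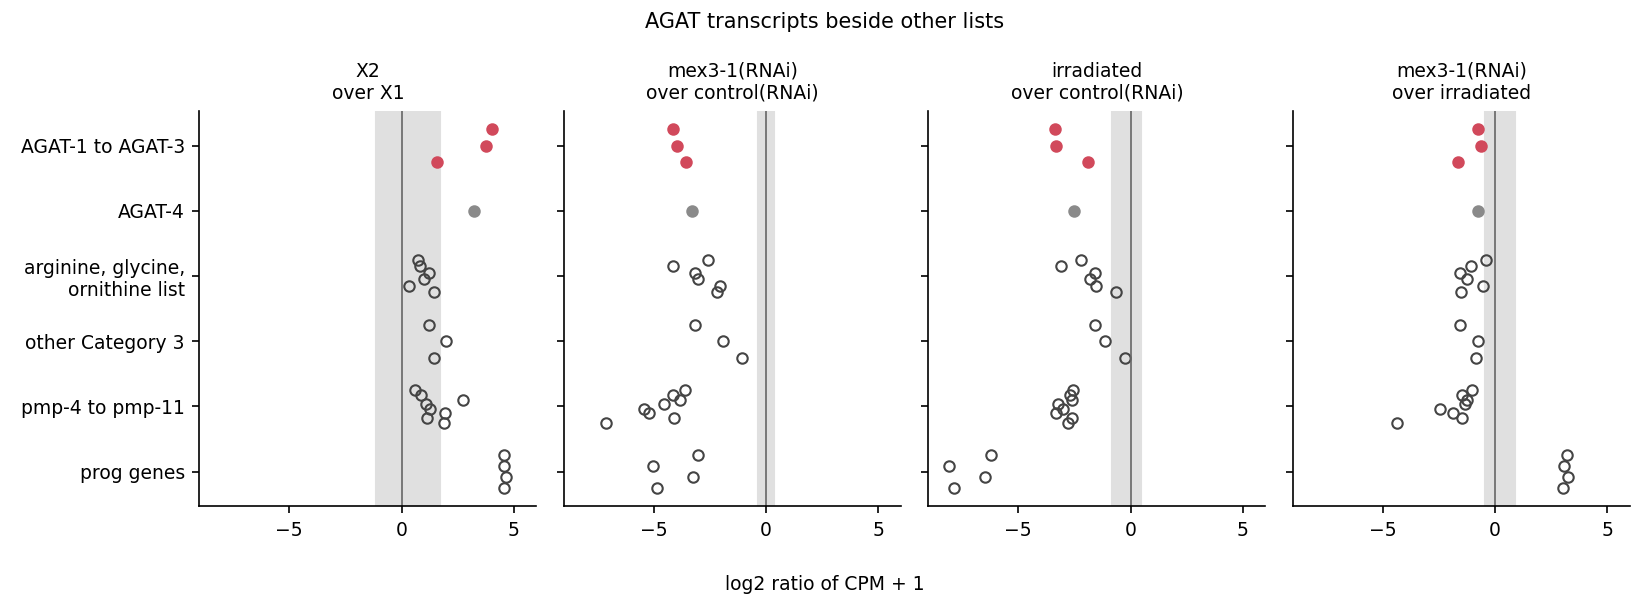
Each point is the log2 ratio of CPM + 1 of a transcript, in 4 comparisons, for the 3 members, *AGAT-4*, the 6 transcripts related to arginine, glycine and ornithine, the 3 other Category 3 markers (SmedASXL_011495 stands in both of these lists), *pmp-4* to *pmp-11* and 4 *prog* transcripts. Shaded bands span percentiles 5 to 95 of all transcripts tested, and only the *prog* transcripts lie to the right in *mex3-1(RNAi)* over irradiated.

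Markers of the stages before and beside AGAT gave different patterns. Of these, *prog-1* and *prog-2* were known from earlier work and the others were named by the study from libraries that include these. The 4 early progeny transcripts, *prog-1*, *prog-2*, *prog-1-1* and *prog-2-3*, had a summed level of 14006 CPM in X2, 590 CPM in X1, 65.97 CPM in *mex3-1(RNAi)*, 4.02 CPM in irradiated and 1382 CPM in *control(RNAi)* animals. They were nearly absent after irradiation, with a median log2 fold over *control(RNAi)* of -7.18, while the median of the members was -3.31 and that of all transcripts tested -0.13. The study picked *prog-1-1* and *prog-2-3* as enriched in X2 over irradiated animals and over X1. Their high X2 and low irradiated levels are therefore no independent evidence. The earlier known *prog-1* and *prog-2* were at -6.22 and -8.09 in irradiated over *control(RNAi)*. From reads, the irradiated over *control(RNAi)* ratio of *AGAT-1* was 13.7 times that of *prog-1* (10.8 to 17.3) and 57.6 times that of *prog-2* (44.0 to 75.4), and for *AGAT-3* these were 38.3 (30.1 to 48.6) and 161 times (123 to 211). On day 7 the AGAT transcripts thus stood closer to their *control(RNAi)* level than the *prog* transcripts did.

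After *mex3-1* knockdown both stages were closer together. All 4 *prog* transcripts were past 2-fold lower, beside 1.02% of all transcripts tested. The median log2 fold of the *prog* transcripts was -4.05, that of the members -3.96 and that of all transcripts 0.01. The *prog* transcripts were spread around their median, from -5.02 for *prog-2* to -3.02 for *prog-1*, while the members ran from -4.13 to -3.55. The *mex3-1(RNAi)* over *control(RNAi)* ratio of *AGAT-1* was 0.45 times that of *prog-1* (0.41 to 0.50) and 1.83 times that of *prog-2* (1.66 to 2.02), so AGAT lay between the pair. In *mex3-1(RNAi)* over irradiated the stages had opposite directions: all 4 *prog* transcripts were at least 2-fold higher in *mex3-1(RNAi)* animals, with a median of 3.13, and the members had a median of -0.77. Of all transcripts tested there, 3.83% were that much higher, and their median was 0.13. The ratio of *AGAT-1* there was 0.033 times that of *prog-1* (0.026 to 0.042).

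The 8 late post-mitotic markers *pmp-4* to *pmp-11* were lower in both kinds of treated animals as the members were. All 8 were at least 2-fold lower in *mex3-1(RNAi)* animals, with a median log2 fold of -4.34, and in irradiated animals, with a median of -2.74, both over *control(RNAi)*. The study took such markers from transcripts enriched in X2 over irradiated animals, or low in irradiated, X1 and X2 libraries. It then classed them as late by the time of their loss after irradiation. Their lower level in irradiated animals is therefore no independent evidence. All 8 were also at least 2-fold lower in *mex3-1(RNAi)* than in irradiated animals, with a median of -1.47. Over all transcripts the share that much lower was 1.02% in *mex3-1(RNAi)* over *control(RNAi)*, 3.29% in irradiated over *control(RNAi)* and 0.899% in *mex3-1(RNAi)* over irradiated, with medians of 0.01, -0.13 and 0.13. In X2 over *control(RNAi)*, without the median shift, all 8 were at least 2-fold lower, beside 32.1% of transcripts. Their median was -3.66, near the -3.87 of *AGAT-3*, while *AGAT-1* was at 0.18 and *AGAT-2* at -0.22. In X2 over irradiated 4 were that much lower, 4 lay between and 0 were higher. The median there was -0.997, with *AGAT-3* at -1.99 and *AGAT-1* at 3.54. X2 levels entered the choice of these markers, so neither count is independent evidence. *pmp-11* was at 30.5 CPM in X2, 7.47 CPM in X1, 6.77 CPM in *mex3-1(RNAi)*, 157 CPM in irradiated and 1097 CPM in *control(RNAi)* animals. Its X2 over X1 ratio of reads could not be told from that of *AGAT-3*, which was 1.36 times as large (0.99 to 1.87), while that of *AGAT-1* was 4.20 times as large (3.73 to 4.73). After knockdown *pmp-11* was further below its *control(RNAi)* level than any member, and the ratio of *AGAT-3* was 11.9 times as large (10.3 to 13.8).

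Likeness over the 5 libraries was measured as the root mean square difference of log2(CPM + 1), each profile centred on its own mean, among 13948 transcripts with at least 5 CPM in 1 or more libraries. It is a description over 5 points. *AGAT-1* and *AGAT-2* were each nearest to the other, at 0.20, and *AGAT-4* came next for both, at 0.59 from *AGAT-1* and 0.42 from *AGAT-2*. *AGAT-3* was not near them: at 1.95 from *AGAT-1* it stood at rank 5253 of that transcript's neighbours, and at 1.76 from *AGAT-2* at rank 3240.

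Beyond the family, *AGAT-1* was nearest to *NUCB1-2*, matched to nucleobindin, at 0.66, then to SmedASXL_009844, matched to reticulocalbin, at 0.85, and to *CG5783-1* at 0.86. Nucleobindin and reticulocalbin are calcium-binding proteins of the secretory pathway in mammals. The nearest of *AGAT-2* beyond the family were *NUCB1-2* at 0.69, *CG5783-1* at 0.70 and *pmp-6* at 0.76. *NUCB1-2* was at 69.7 CPM in X2, 4.94 CPM in X1, 4.10 CPM in *mex3-1(RNAi)*, 4.40 CPM in irradiated and 24.1 CPM in *control(RNAi)* animals. It thus shared the X2 peak, and its gap between X2 and *control(RNAi)* animals was wider than that of *AGAT-1*. The authors had picked *NUCB1-2* among their top X2-enriched transcripts.

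The 5 transcripts nearest to *AGAT-3* were *prog-1-5* at 0.14, SmedASXL_011495 at 0.19, *Smed-aminopeptidase N-1* at 0.21, SmedASXL_003140 at 0.27 and SmedASXL_004193 at 0.27. The authors' list of lower transcripts holds all 5, and *prog-1-5* and SmedASXL_004193 are also among those they picked as high in wild-type animals and low in X1, X2 and irradiated libraries. *prog-1-5* was at 7.20 CPM in X2, 1.97 CPM in X1, 7.97 CPM in *mex3-1(RNAi)*, 34.6 CPM in irradiated and 103 CPM in *control(RNAi)* animals. Although named for *prog-1*, it was highest in *control(RNAi)* animals and low in X2, as *AGAT-3* was, and unlike *prog-1*, which was at 2156 CPM in X2 against 151 CPM in *control(RNAi)* animals. *Smed-aminopeptidase N-1* was at 5.80 CPM in X2 and 68.3 CPM in *control(RNAi)* animals.

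**Figure D5:**
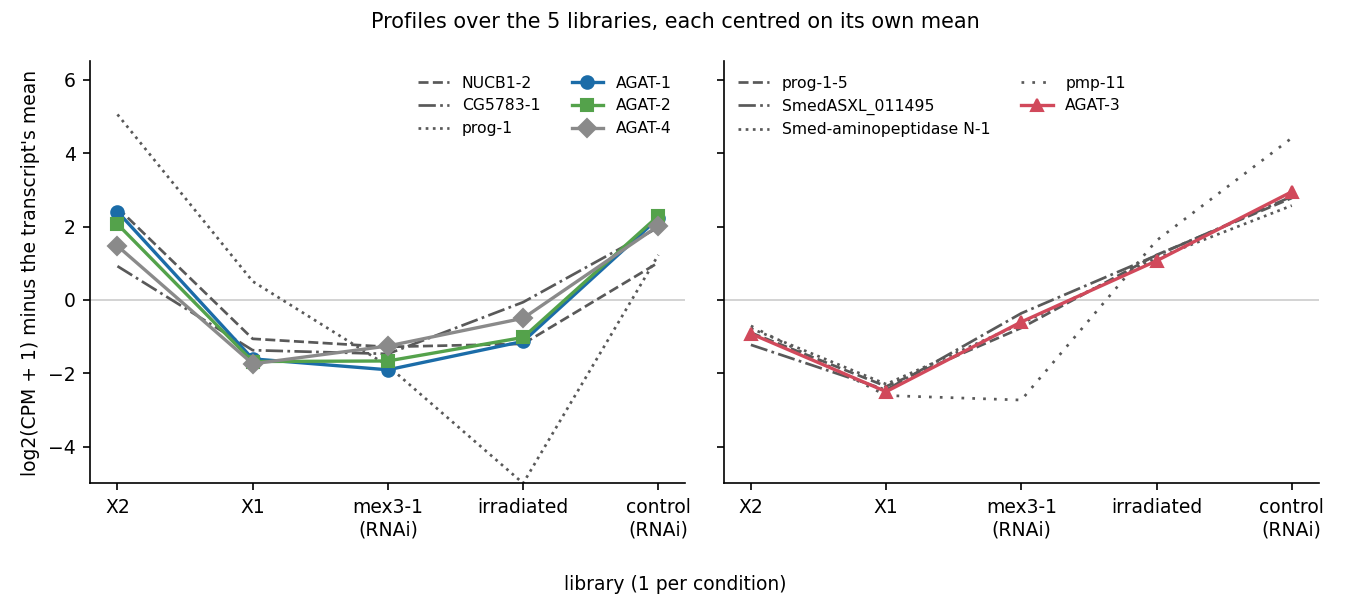
Lines join the log2(CPM + 1) of a transcript over the 5 libraries, centred on its own mean, with *AGAT-1*, *AGAT-2* and *AGAT-4* on the left and *AGAT-3* on the right, beside near transcripts and *prog-1* or *pmp-11*. *AGAT-1* is 2.41 above its mean in X2, whereas *AGAT-3* is 0.92 below its mean there.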

How the data were processed

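The authors aligned untrimmed reads of 5 libraries to the SmedASXL transcriptome (Bowtie2 2.2.4), and the deposited values are CPM with a pseudocount of 1 added by the authors. They are scaled to mapped reads and not to transcript length. Tables that hold only the authors' own DESeq folds and FDR values were not used, nor were 10 deposited columns of other series and the authors' table of wild-type controls. CPM was the deposited value minus 1, and each value corresponded to a whole number of reads (tolerance 0.01 read). The rows given here hold at least 99.9% of each total, and a row without a transcript name held at most 32 reads. A count of 0 allows up to 3 reads, 0.0430 to 0.0496 CPM by library.

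Folds are ratios of CPM + 1, called at 2-fold, where either library reached 1 CPM, with exact Clopper-Pearson intervals of the reads. Differences between transcripts have intervals from the Poisson variance of 4 read counts. No p-value was computed. Members, lists and named transcripts were chosen with earlier results of these data known: the 3 members, *AGAT-4*, listed transcripts that are extreme or that a result turns on, and the 5 nearest of each member. Names come from the supplementary files. No sequence is given, since no reference was used. The calculation was tested on simulated reads. Software was scipy 1.17.1, pandas 2.3.3, matplotlib 3.10.9 and numpy 2.4.6 under Python 3.11.15. Alternatives are given in the closing section.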

Additional observations from a re-analysis of the deposited data

How the results depend on the processing

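Fold thresholds of 1.5 and 5, a median log2 fold set to 0, pseudocounts of 5 and 0.1 CPM and a scaling that left out the 10 most abundant transcripts were tried. With a threshold of 5, the members at least that much lower numbered 0 in X2 over irradiated and 0 in *mex3-1(RNAi)* over irradiated, where 1 was 2-fold lower in each. That threshold also left 2 members higher in X2 over X1 and 2 lower in irradiated over *control(RNAi)*, against 3 at 2-fold in each, *AGAT-3* being the one lost. With a threshold of 1.5 they numbered 2 in X1 over irradiated, against 1 at 2-fold, and 3 in *mex3-1(RNAi)* over irradiated. The pseudocount of 5 CPM took *AGAT-3* under 2-fold in X2 over X1, at a log2 fold of 0.69, against 1.58 with 1 CPM and 2.33 with 0.1 CPM. Between pseudocounts of 0.1 and 5 CPM its log2 fold ran from -4.53 to -2.11 in X1 over irradiated, from -4.12 to -3.13 in X2 over *control(RNAi)* and from -3.74 to -2.94 in *mex3-1(RNAi)* over *control(RNAi)*. No other fold of a member moved by over 1.5 times with the pseudocount. The other 20 log2 folds of members kept their side of 2-fold with 5 CPM, and all 21 did under the other 3 scalings. The sign of *AGAT-1* in X2 over *control(RNAi)* turned with the median set to 0. Without a filter on low values the share of transcripts at least 2-fold lower in *mex3-1(RNAi)* over *control(RNAi)* was 0.243%. By Pearson correlation in place of the root mean square, 2 of the 5 transcripts nearest to *AGAT-1*, 2 of those of *AGAT-2* and 1 of those of *AGAT-3* were among the nearest 5. No paired analysis was possible because 1 library per condition was used. The paper had further replicates of X1, X2 and irradiated animals, but these belong to other series and were not used here. Depth limits *AGAT-3* in X1 most, at 50 reads, and no result here has a check by replicates.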
